A study of Mus musculus with 6 samples.

Results

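Shh, the secreted hedgehog ligand of the urethral plate, and Foxa1 and Foxa2, a pair of forkhead transcription factors of endodermal epithelia, were followed in sorted cells of the mouse genital tubercle. Members were taken by annotation as all probe sets assigned to Shh, Foxa1 or Foxa2 alone, which gave 4 probe sets for these 3 genes among 34945 probe sets for 18193 genes. The 3 genes were selected on their measured signal in reporter-positive against reporter-negative cells, the same contrast described here. Their levels are therefore given as a description, without a test.

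The cells came from tubercles at 12.5 days post coitum, on a mixed background with males and females pooled. Every embryo carried Shhtm1(EGFP/cre)Cjt, in which the Shh locus makes an EGFP and Cre fusion, and at least 1 copy of Gt(ROSA)26Sortm3(CAG-EYFP)Hze, which yields EYFP after Cre has acted. The reporter-positive fraction was labelled as urethral epithelium and the reporter-negative fraction as the other cells of the tubercle, with 3 arrays in each group and pools of 3, 5 and 2 littermates behind replicates 1, 2 and 3 of either group. Both groups thus share the knock-in, which as background disrupts the copy of Shh that carries it, and a cell that made Cre earlier keeps its EYFP. The sort itself was thus made on fluorescence that the Shh locus drives. No wild-type tubercle was analysed here.

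Shh is cleaved and lipid-modified in the cell that makes it, is released through Disp1 and Scube proteins, and binds Ptch1 on receiving cells, which frees Smo and activates Gli factors. In the tubercle the urethral epithelium is the source of Shh, and the mesenchyme around it responds with growth and patterning. Foxa1 and Foxa2 are pioneer factors that open chromatin, and both act upstream of Shh in mouse endodermal epithelia, among them lung and urethral endoderm.

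Arrays differed in brightness before any member was read. The median deposited signal of named probe sets ran from 0.34 to 8.84 over the 6 arrays, while controls added at hybridization averaged 1443 to 1884. Positive replicate 3 was the dimmest, with 24.6% of named probe sets above its background, against 44.0% to 59.3% on the other 5 arrays. Background was read on each array as the brightest of 27 probe sets for bacterial transcripts that were not added, which lay between 1.12 and 8.28. Quantile normalization, which gives all arrays 1 distribution, was used for levels on the log2(signal + 16) scale, and results that rest on positive replicate 3 are also given without it.

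Shh, the ligand itself, was read by probe sets 1436869_at and 1427571_at. Probe set 1436869_at had a deposited signal of 287, 718 and 16.9 in positive replicates 1, 2 and 3, against 1.31, 18.4 and 2.51 in negative replicates 1, 2 and 3. In multiples of the background of the same array this was 64.2, 163 and 15.1 in positive arrays, and 0.24, 2.22 and 1.24 in negative arrays. Every positive array thus read Shh well above its background, and 2 of 3 negative arrays read it above theirs. As deposited the groups overlapped, since negative replicate 2 lay above positive replicate 3. In bulk samples such as these, fewer cells of a type and less RNA per cell cannot be told apart.

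Placed by rank within each array, Shh stood at percentile 98.9, 99.8 and 99.8 of named probe sets in positive replicates 1, 2 and 3. It stood at percentile 19.6, 64.5 and 54.3 in negative replicates 1, 2 and 3. After normalization the log2 signal was 8.49, 9.78 and 9.92 in positive arrays and 4.06, 4.63 and 4.41 in negative arrays. The lowest positive array was 3.86 above the highest negative array on this scale. The mean difference was 5.03 (SE 0.47, n = 3 each), and without positive replicate 3 it was 4.96 (SE 0.39).

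Probe set 1427571_at, the other reading of Shh, was close to background everywhere. Its deposited signal was 5.12, 6.39 and 1.06 in positive replicates 1, 2 and 3, against 1.18, 1.49 and 1.05 in negative replicates 1, 2 and 3. In multiples of background this was 1.15, 1.45 and 0.95 in positive arrays and 0.22, 0.18 and 0.52 in negative arrays. It was above background on 2 of 3 positive arrays and 0 of 3 negative arrays. Its normalized log2 signal averaged 4.61 ± 0.20 in positive arrays and 4.11 ± 0.08 in negative arrays (SD, n = 3 each). No negative array measured it, so the comparison took, on each negative array, the higher of its own value and the lowest value above background. Positive replicate 3 did not measure it either, so all arrays together give no lower bound. Without that array it was at least 1.18-fold higher in positive cells on this scale. Both Shh probe sets pointed the same way, and their mean gave a log2 difference of 2.77 in place of 5.03.

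Foxa1, a pioneer factor that binds closed chromatin, was read by 1418496_at. Its deposited signal was 105, 329 and 3.87 in positive replicates 1, 2 and 3, against 0.58, 9.24 and 0.77 in negative replicates 1, 2 and 3. Relative to background the values were 23.4, 74.5 and 3.46 in positive arrays and 0.11, 1.12 and 0.38 in negative arrays. Foxa1 was therefore above background on 3 of 3 positive arrays and on 1 of 3 negative arrays, replicate 2. That negative array also had the highest negative reading of Shh, and its deposited Foxa1 signal exceeded that of positive replicate 3.

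The normalized log2 signal of Foxa1 was 7.09, 8.85 and 8.05 in positive replicates 1, 2 and 3 and 4.03, 4.38 and 4.16 in negative replicates 1, 2 and 3. The groups were 2.71 apart at their nearest arrays. The mean difference was 3.81 (SE 0.48, n = 3 each) and 3.995 (SE 0.42) without positive replicate 3. With 2 of 3 negative arrays below background, this size rests in part on values that were not measured. Of 14071 genes tested, 34 (0.242%) were higher in positive cells by 2 or more on this scale (0.244% without positive replicate 3). These counts include the members and leave out genes that were lower in positive cells by as much.

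Foxa2, the forkhead factor that activates Shh in the floor plate of the mouse neural tube, was read by 1422833_at. Its deposited signal was 27.8, 60.7 and 2.97 in positive replicates 1, 2 and 3, against 0.48, 0.44 and 0.30 in negative replicates 1, 2 and 3. These are 6.21, 13.8 and 2.65 times background in positive arrays and 0.09, 0.05 and 0.15 times background in negative arrays. Foxa2 was above background on 3 of 3 positive and 0 of 3 negative arrays, a pattern met by 46 of 34945 named probe sets (0.132%). Being above it on 3 of 3 positive arrays, whatever the negative ones, held for 15.7%. Among the members, Foxa2 was the one whose groups did not overlap as deposited, which held for 0.527% of named probe sets.

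Normalized, Foxa2 had a log2 signal of 5.46, 6.79 and 7.46 in positive replicates 1, 2 and 3 and 4.02, 4.02 and 4.07 in negative replicates 1, 2 and 3. With no negative array above background, Foxa2 was at least 4.78-fold higher in positive cells on this scale. Without positive replicate 3 it was at least 3.88-fold higher on the same scale. The measured difference of means was 2.53 (SE 0.49, n = 3 each) and 2.27 (SE 0.34) without that array. These lower bounds hold for this processing only. The log2 difference of Foxa2 was 1.28 with no normalization, 1.20 with a pseudocount of 64 and 5.75 with a pseudocount of 1. After normalization the groups did not overlap for any of the 4 probe sets, as was the case for 5.77% of named probe sets, and nothing is read from this count because the contrast chose the genes.

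**Figure D1:**
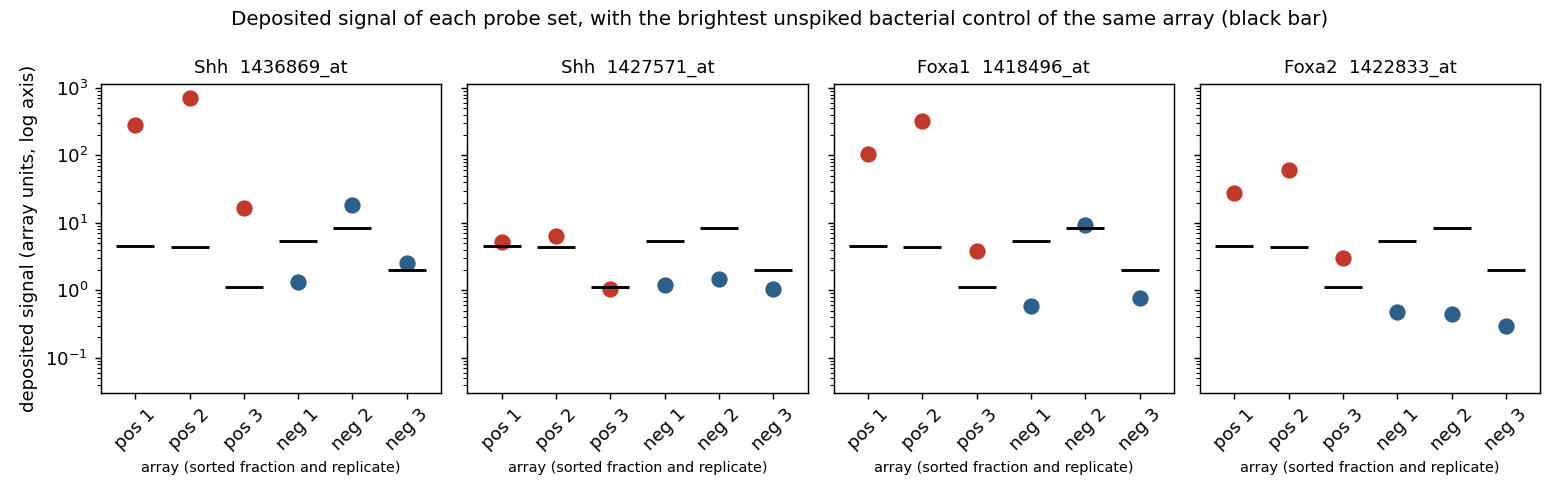
Deposited signal (log axis, array units) of the 4 probe sets in positive replicates 1 to 3 (red) and negative replicates 1 to 3 (blue), with black bars for the brightest unspiked bacterial control of each array. Foxa2 lies below the bar on all 3 negative arrays, and positive replicate 3 is the dimmest positive array for every probe set.

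**Figure D2:**
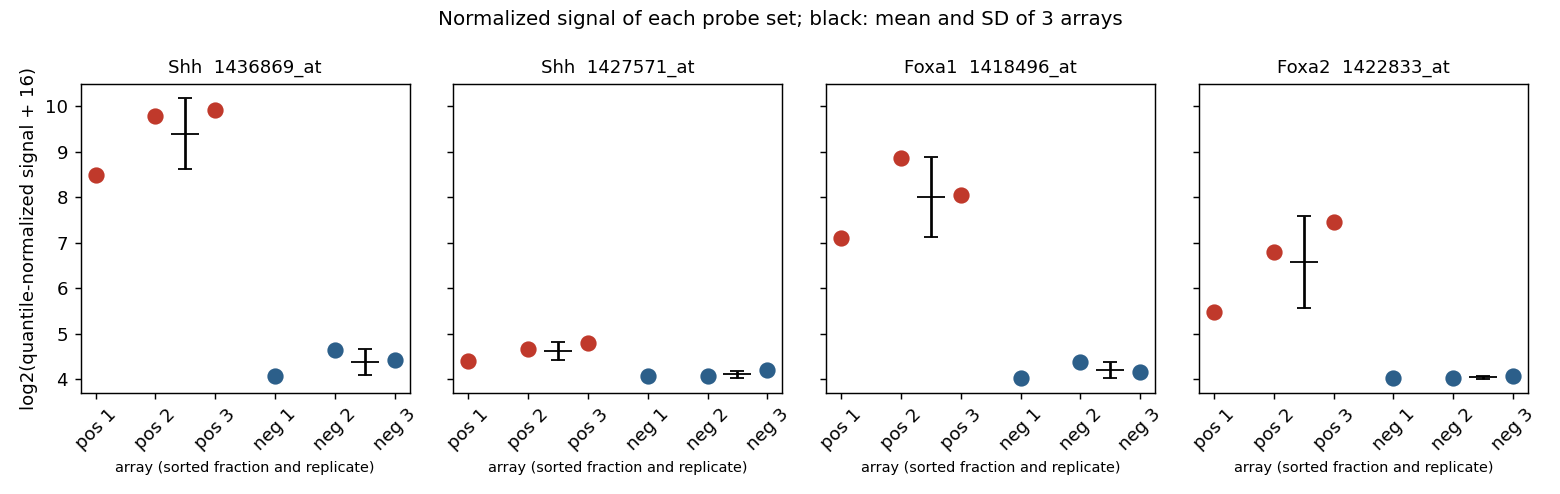
The same probe sets as log2(quantile-normalized signal + 16), with the mean and SD of the 3 arrays of each group in black. The positive means of 9.40, 7.998 and 6.57 for Shh (1436869_at), Foxa1 and Foxa2 stand against negative means of 4.37, 4.19 and 4.04.

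The 3 positive arrays did not carry the genes alike. Deposited signal was higher in replicate 2 than in replicate 1, which hold separate pools, by 2.51 times for Shh, 3.14 times for Foxa1 and 2.19 times for Foxa2. On the normalized log2 scale replicate 2 was higher by 1.29, 1.76 and 1.32. All 11 markers of simple epithelium were higher in replicate 2 after normalization as well, by 0.38 to 1.55, with Krt8 at 1.25 and Krt18 at 1.28. All 13 mesenchymal markers were lower in replicate 2, with differences of -4.51 to -0.38 on the same scale. Positive replicate 3 differed from replicate 2 by 0.14 for Shh, -0.80 for Foxa1 and 0.67 for Foxa2, so the members did not shift together there.

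Markers of cell types differed between the arrays as well. For 13 mesenchymal markers the summed normalized signal reached 2596 in positive replicate 1 but 188 and 434 in positive replicates 2 and 3, against 2629 to 3291 in negative arrays. In positive replicate 1, which had the lowest normalized Shh, Foxa1 and Foxa2 of its group, 13 of 13 of these markers were above background. Simple epithelium markers summed to 872 to 2183 in positive arrays and 61.6 to 75.9 in negative arrays, with 11 of 11 above background on each positive array and 5 to 7 on each negative array. Erythroid markers summed to 628 to 1511 in positive arrays and 3136 to 6035 in negative arrays, and leukocyte markers to 68.0 to 161 in positive and 16.4 to 37.5 in negative arrays. Stratified ectoderm markers summed to 402 to 510 in positive arrays and 110 to 182 in negative arrays, but by log2 difference they were split. Krt15, Trp63, Perp and Sfn were at 2.31, 2.06, 1.58 and 1.01, and Krt17 and Krt5 at 0.39 and 0.11. Krt14 and Krt10 were at -0.57 and -0.58. Endothelial markers summed to 46.5, 22.9 and 139 in positive replicates 1, 2 and 3 and to 18.02 to 27.5 in negative arrays. In the dim positive replicate 3 only 1 of 7 was above background. As deposited the endothelial sums were 4.15 to 47.3 in positive and 7.85 to 47.0 in negative arrays. The part of these cells in the members' levels was not tested.

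Notochord and floor plate, other embryonic sites of Shh and Foxa2, were looked for by 8 markers, and 5 of these could be read. Between 0 and 2 of the 5 were above background on positive arrays and 1 to 3 on negative arrays. Their summed normalized signal was 17.6, 16.7 and 76.5 in positive replicates 1, 2 and 3, against 7.21 to 18.2 in negative arrays, so the dim positive replicate 3 stood above the rest. As deposited the sums were 3.72 to 18.1 in positive arrays and 3.27 to 33.5 in negative arrays.

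The processing changed the size of the members' differences and not their sign. Over 13 alternatives the log2 difference ran from 2.77 to 7.11 for Shh, from 2.22 to 6.42 for Foxa1 and from 1.20 to 5.75 for Foxa2. The pseudocount, 16 in the values above, was 1 such choice. With a pseudocount of 1 the differences were 7.11, 6.42 and 5.75 for Shh, Foxa1 and Foxa2, and with 64 they were 3.40, 2.22 and 1.20. Scaling to the hybridization controls, which keeps the unequal brightness of the arrays, gave 3.04, 2.23 and 1.23. Leaving out 1 array at a time gave 4.76 to 5.50 for Shh, 3.46 to 4.31 for Foxa1 and 2.17 to 3.12 for Foxa2.

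**Figure D3:**
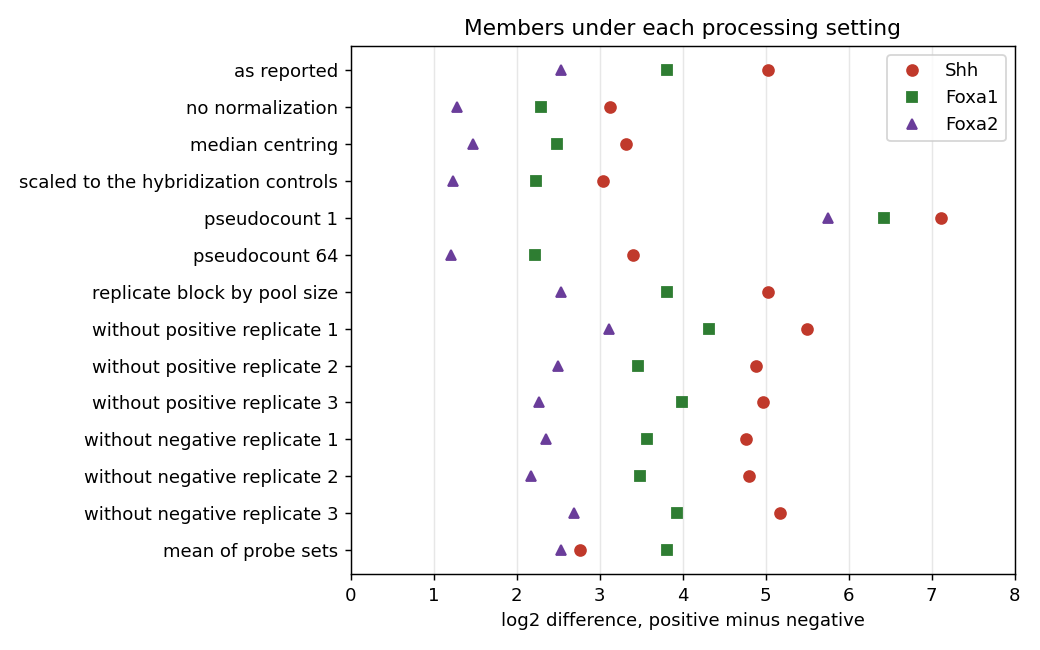
Log2 difference (positive minus negative) of Shh, Foxa1 and Foxa2 under each processing setting, 1 row per setting. All 3 genes stay above 0 in every row, from 1.20 (Foxa2, pseudocount 64) to 7.11 (Shh, pseudocount 1).

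The other genes of the hedgehog pathway were read from the limma fit over all 14071 tested genes. The members were in this fit too, so its counts over all genes include genes that the contrast chose. In that fit 2 genes were higher in positive cells (0.0142%) and 0 were lower (0%) at an adjusted p under 0.05, and 728 (5.17%) had an unadjusted p under 0.05. Without positive replicate 3 the counts were 77 higher (0.552%) and 7 lower (0.0501%) of 13960, with 9.15% at an unadjusted p under 0.05. All positive arrays lay above all negative arrays for 6.29% of genes and below them for 6.99%, and for 13.2% and 11.4% without positive replicate 3. The median log2 difference of all tested genes was -0.03.

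Ligands and release proteins other than Shh gave 5 tested genes, of which none passed, and 5 of the 10 on the array were below the filter on dim genes. The other ligands Ihh and Dhh were below background on all 6 arrays, at no more than 6.58 in deposited signal for Ihh and 5.26 for Dhh. Disp1, which releases lipid-modified ligand, measured 4.55 ± 0.50 in positive and 4.32 ± 0.25 in negative arrays (SD, n = 3 each). Scube3, a secreted carrier of hedgehog, measured 5.53 ± 1.04 against 5.08 ± 0.18. Disp2, a relative of Disp1, differed by 0.34 (SE 0.34). Adam17, a membrane protease, differed by -0.57 (SE 0.49, limma adjusted p = 0.728). The list median was 0.23. Positive replicate 3 set several of these values. Without it Adam17 was at -0.01, Scube3 at -0.15, Disp1 at 0.56 and the list median at -0.08, while Disp2 was not tested.

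Receptors and co-receptors had no gene past the threshold among 7 tested, and a median of -0.09. Ptch1, the receptor and a target of the pathway, had a deposited signal of 322, 80.1 and 0.31 in positive replicates 1, 2 and 3, against 499, 1226 and 137 in negative replicates 1, 2 and 3. Gas1, a co-receptor of receiving cells, had 101, 23.4 and 0.87 in positive arrays and 422, 398 and 35.6 in negative arrays. For both genes the groups overlapped, as deposited and after normalization, because positive replicate 1 lay above negative replicate 3. Their log2 differences were -1.94 (SE 0.88) for Ptch1 and -1.72 (SE 0.62) for Gas1, both with a limma adjusted p of 0.725. Without positive replicate 3 they were -0.76 for Ptch1 and -1.13 for Gas1, and the list median was 0.01. Smo, the signal transducer, measured 6.87 ± 0.14 in positive and 6.79 ± 0.56 in negative arrays (SD, n = 3 each), and Boc and Cdon differed by -0.10 and -0.09.

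Transduction genes and Gli factors had 0 of 13 tested genes past the threshold and a median of -0.44. Gli2, the main activator among Gli factors, differed by -1.30 (SE 0.50), Gli1, a transcriptional target of the pathway, by -0.89 (SE 0.34) and Gpr161, an inhibitory receptor of the cilium, by -0.88 (SE 0.41), each with a limma adjusted p of 0.725. After normalization 2 of the 13, Gli2 and Kif7, were lower on all positive than on all negative arrays, beside 6.99% of all tested genes. For Gli2 the nearest arrays, positive replicate 1 and negative replicate 1, were at 6.0854 and 6.0859. As deposited the groups overlapped for Gli2, Kif7 and Gpr161, since positive replicate 1 lay above negative replicate 3. For Gli1 all positive arrays lay below all negative arrays as deposited, but not after normalization. The share of all genes with that deposited pattern was not counted. Gli1 was above background on 1 of 3 positive arrays, with 9.23, 2.26 and 0.05 in replicates 1, 2 and 3, and on 3 of 3 negative arrays, with 14.3, 62.8 and 10.6. The positive array above background was replicate 1, which also had the most mesenchymal signal of its group. Without positive replicate 3 none of these 3 lists had a called gene.

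The forkhead family was measured beyond Foxa1 and Foxa2 by 27 tested genes, with a median of 0.00 and none past the threshold. After normalization 1 of the 27 was higher on all positive than on all negative arrays, beside 6.29% of all tested genes, and 5 were lower, beside 6.99%. Foxa3, the third Foxa gene and a factor of liver and gut, was below background on all positive arrays and above it on 1 negative array, and it did not pass the filter on dim genes. The largest negative differences were those of Foxf2 and Foxf1, mesenchymal targets of hedgehog signalling. Foxf2 differed by -1.73 (SE 0.44, limma adjusted p = 0.628) and Foxf1 by -1.49 (SE 0.39, limma adjusted p = 0.676). Next came Foxk1 at -0.93 (SE 0.45), and -0.55 without positive replicate 3. The largest positive difference was that of Foxp4, a factor of lung and gut epithelium, at 0.60 (SE 0.38, limma adjusted p = 0.725), so the tested relatives of Foxa1 and Foxa2 lay between -1.73 and 0.60. Without positive replicate 3 Foxp4 was at 0.27, below Foxp2 at 0.49, and Foxf2 and Foxf1 were at -1.57 and -1.43.

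Among 14 other endodermal transcription factors tested, Sox2 and Klf5 stood apart in size. Sox2, a factor of foregut and progenitor epithelia, had a deposited signal of 70.8, 94.5 and 2.92 in positive replicates 1, 2 and 3, against 4.37, 5.58 and 2.24 in negative replicates 1, 2 and 3. Its normalized log2 signal averaged 7.11 ± 0.47 in positive and 4.27 ± 0.08 in negative arrays (SD, n = 3 each), a difference of 2.84 (SE 0.38, limma adjusted p = 0.0626). Klf5, a factor of gut and urinary epithelium, read 48.3, 60.1 and 3.87 in positive arrays and 13.6, 22.5 and 2.09 in negative arrays, with a difference of 2.41 (SE 0.51, limma adjusted p = 0.406). Neither passed in the 6 arrays. Without positive replicate 3, both passed, Sox2 at 2.86 (limma adjusted p = 0.000499) and Klf5 at 2.00 (limma adjusted p = 0.00801), and they were 2 of 16 genes of the list then tested, beside 0.552% of all genes.

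The remaining endodermal factors lay between -0.42 and 0.35. Tcf21, a mesenchymal factor that the list also holds, differed by -0.42 (SE 0.57) and Hnf4a, a liver and gut factor, by 0.35 (SE 0.38). The sign of Hnf4a turned without positive replicate 3, to -0.17, and Gata6 was at 0.39. Gata4 and Gata6, zinc finger factors of endoderm, differed by 0.17 and 0.06, and Sox17 by 0.05. Cdx1 was below background on all 6 arrays, and the hindgut factor Cdx2 was above it on 1 negative array. The list median was 0.14.

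Factors that act upstream of Shh in other mouse tissues numbered 19 tested genes. None passed in the 6 arrays, and without positive replicate 3 Sox2 alone did. The limb regulators Tbx2, Twist1 and Hand2 differed by -1.60 (SE 0.59), -1.29 (SE 0.68) and -1.27 (SE 0.54), each with a limma adjusted p of 0.725. Hoxd13, a factor of the distal limb and tubercle, measured 8.90 ± 0.15 in positive and 8.93 ± 0.32 in negative arrays (SD, n = 3 each), and Isl1 8.17 ± 0.63 against 8.33 ± 0.19. Both were above background on all 6 arrays, and their groups overlapped.

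**Figure D4:**
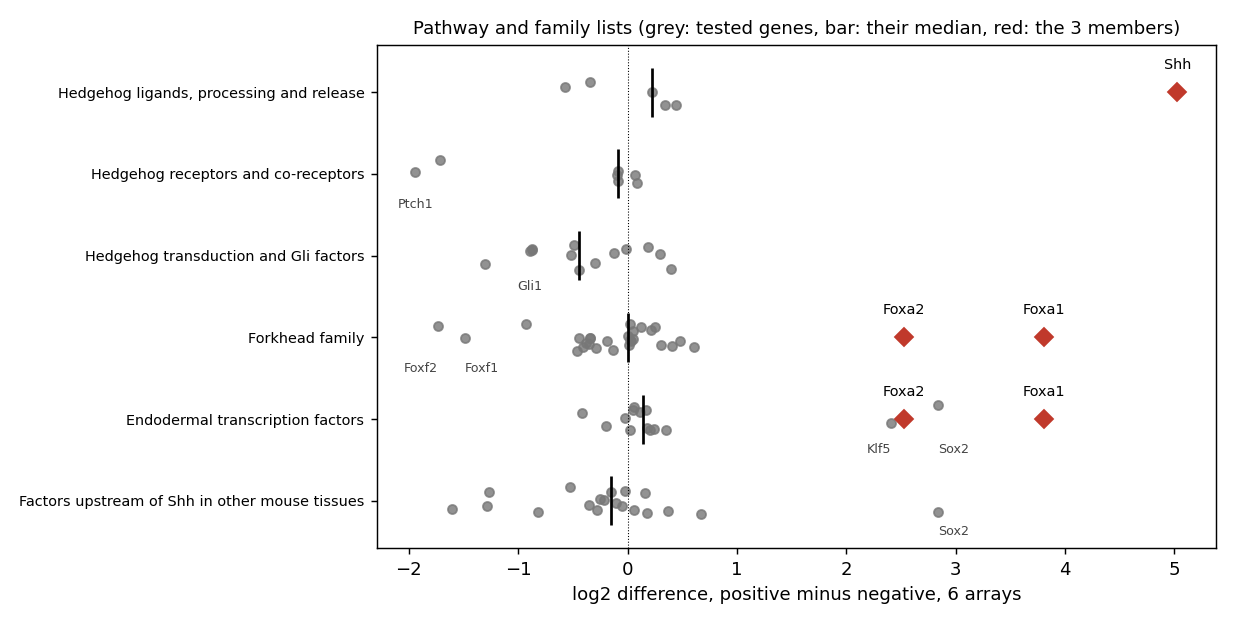
Log2 difference (positive minus negative, 6 arrays) of every tested gene of 6 lists, with the list median as a black bar and Shh, Foxa1 and Foxa2 in red. Outside the members, Sox2 at 2.84 and Klf5 at 2.41 lie farthest to the right and Ptch1 at -1.94 farthest to the left, a place that rests on positive replicate 3 (-0.76 without it, where Foxf2 is at -1.57).

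The genes next to the members on the chromosome were compared as well, since the 3 genes lie apart on chromosomes 5, 12 and 2. The 5 nearest protein-coding genes on each side gave 30 neighbours in the RefSeq gene table, of which 21 were tested. None passed in the 6 arrays, nor without positive replicate 3. On the normalized scale 2 of the 21, Rnf32 beside Shh and Nkx2-9 near Foxa1, were higher on all positive than on all negative arrays, beside 6.29% of all genes. Another 2 of the 21, Ube3c and Sec23a, were lower on all positive than on all negative arrays, beside 6.99% of all genes. Lmbr1, whose intron holds the limb enhancer of Shh, measured 4.89 ± 0.75 in positive and 4.73 ± 0.34 in negative arrays (SD, n = 3 each), a difference of 0.16, or 0.52 without positive replicate 3.

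Rnf32, the gene nearest to Shh on the side of Lmbr1, had the largest positive difference among neighbours at 1.23 (SE 0.42, limma adjusted p = 0.725). Its deposited signal was 17.0, 49.4 and 1.38 in positive replicates 1, 2 and 3, against 8.61, 16.5 and 1.39 in negative replicates 1, 2 and 3, so the groups overlapped as deposited. On the other side of Shh, Rbm33 differed by 0.37 (SE 0.38), or 0.61 without positive replicate 3, and Insig1, a regulator of sterol synthesis, by -1.01 (SE 0.48). Farther along on the side of Rnf32, Ube3c differed by -0.58 (SE 0.32). Nkx2-9 differed by 0.25 (SE 0.15). It was above background on 1 of 3 positive and 0 of 3 negative arrays, and its groups overlapped as deposited.

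Beside Foxa1, Ttc6 differed by 0.66 (SE 0.42), and by 1.13 without positive replicate 3. Its deposited signal was 6.58, 29.4 and 0.07 in positive replicates 1, 2 and 3, against 0.93, 2.60 and 2.37 in negative replicates 1, 2 and 3. Mipol1, on the other side of Foxa1, differed by -0.07 (SE 0.16). The other tested neighbours of Foxa1 were Clec14a at 0.89, Pax9 at 0.75, Gemin2 at -0.32, Prps1l3 at -0.74 and Sec23a at -1.06. With that array left out Pax9 was at 0.10, Prps1l3 at 0.11 and Sec23a at -0.56, and Clec14a was not tested. The 8 tested neighbours of Foxa2, Sstr4, Pax1, Cd93, Thbd, Xrn2, Gzf1, Kiz and Nxt1, lay between -0.50 and 0.37. Without that array 7 of them were tested and lay between -0.32 and 0.35, with Nxt1 and Xrn2 turned to 0.12 and 0.35.

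**Figure D5:**
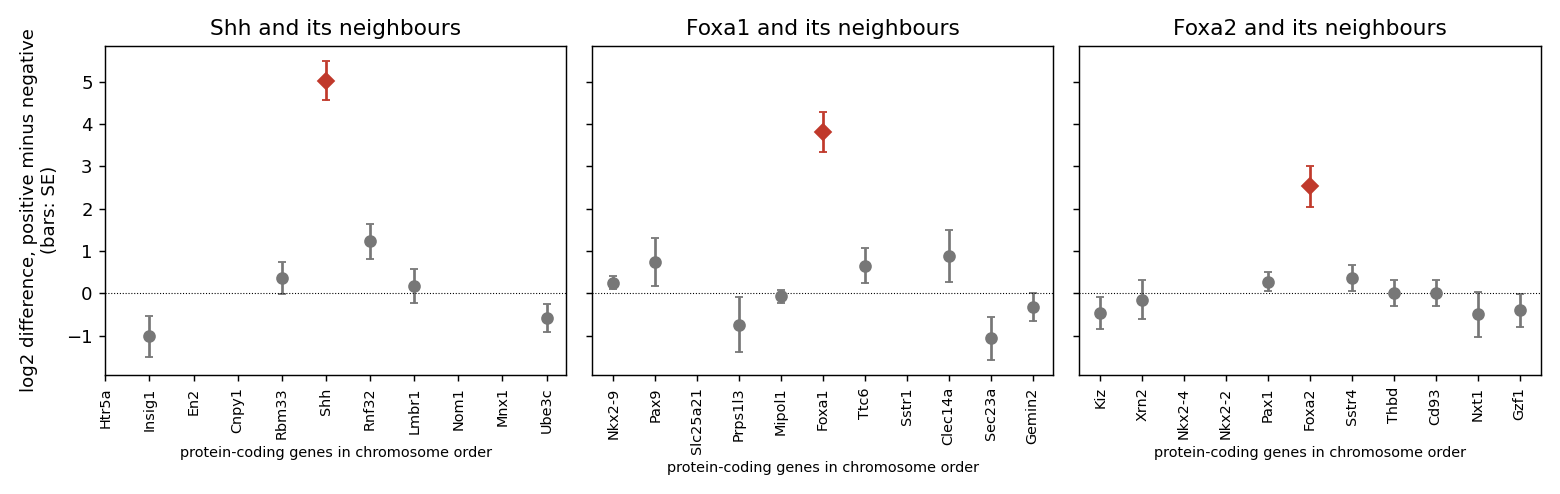
Log2 difference (positive minus negative, 6 arrays, bars SE) of Shh, Foxa1 and Foxa2 in red and of their tested neighbours in grey, in chromosome order. Names without a point were not tested, and Rnf32 at 1.23 is the highest neighbour.

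For each member the genes whose levels followed it most closely were listed. Pearson's r is given as a description, over arrays that share the split into 2 fractions and the dim positive replicate 3. For Shh the 6 closest of 13218 genes were Krt8, Sox2, Krt18, Ptprf, Cldn6 and Krt7, with r from 0.991 to 0.999. Foxa1 stood at place 7 for Shh (r = 0.989) and Foxa2 at place 38 (r = 0.963). In all, 174 genes had an r above 0.9 with Shh (1.32%). Over the 5 arrays without positive replicate 3 these were 557 genes (4.24%), with Foxa1 at place 14 and Foxa2 at place 99.

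For Foxa1 the closest were Sptlc3, Rhpn2, Podxl, Krt19, Gyg and Cd151, with r from 0.990 to 0.998. For Foxa2 they were Bnipl, Dapl1, Mal2, Cldn7, Ints6 and Plp2, with r from 0.997 to 0.999. Over the 5 arrays without positive replicate 3 the lists differed. Whamm, Mvb12b, Slc44a2, Tubb1, Krt8 and Cldn6 were then closest to Shh, Krt7, Bnipl, Mal2, Chaserr, Gng12 and Psmd11 to Foxa1, and Spint1, Cystm1, Cobl, Rab15, Parm1 and Bnipl to Foxa2. Krt8 and Cldn6 were among the closest to Shh in either set of arrays, and Bnipl was among the closest to Foxa2.

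The promoters of Foxa1 and Foxa2 are shown because each product is a forkhead factor and both genes were higher in the same fraction. They are the 250 bases before a RefSeq start on GRCm38.p6, 5′ to 3′ on the minus strand, at chr12:57546112-57546361 for Foxa1 and chr2:148046970-148047219 for the outermost of 3 Foxa2 entries. Capitals mark letters that match a forkhead motif on either strand, and 3 motifs of 7 letters were searched, TGTTTAC and its variants that read TATTTAC and, last, TGTTTGC.
Foxa1: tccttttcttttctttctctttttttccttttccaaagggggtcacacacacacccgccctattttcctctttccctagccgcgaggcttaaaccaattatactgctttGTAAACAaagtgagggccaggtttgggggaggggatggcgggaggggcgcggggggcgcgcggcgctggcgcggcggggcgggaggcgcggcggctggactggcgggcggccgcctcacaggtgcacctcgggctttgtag
Foxa2: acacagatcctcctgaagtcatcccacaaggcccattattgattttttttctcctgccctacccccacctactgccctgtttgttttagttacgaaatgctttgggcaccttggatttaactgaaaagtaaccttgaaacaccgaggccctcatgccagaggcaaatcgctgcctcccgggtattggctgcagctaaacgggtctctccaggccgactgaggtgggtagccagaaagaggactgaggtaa

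The Foxa1 window held 1 match, GTAAACA at bases -141 to -135 from the start, which is TGTTTAC on the opposite strand, and it overlapped no other match. The Foxa2 window held none of these letters, nor did the windows of the other 2 Foxa2 entries. TGTTTAC was found in 3.17% of 32851 RefSeq promoter windows of this length, TATTTAC in 2.73%, TGTTTGC in 4.30% and at least 1 of them in 9.73%. A match is a run of letters and not a shown binding site.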

How the data were processed

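RNA of sorted cells was biotin-labelled and hybridized to Affymetrix arrays (45101 probe sets), per the labels' protocols. The deposited values are 1 linear intensity per probe set and array. For 1 of 6 samples the submitters' processing notes name GCOS. How probe sets were summarized and scaled is not given in the sources used here. The deposited intensity appears unscaled, since array medians differed while hybridization controls (18 probe sets) were alike.

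After 64 control probe sets were set aside, 45037 were quantile normalized and taken as log2(signal + 16), which understates changes of dim genes. A single gene was annotated for 34945 of these, several for 932, and 9160 were unnamed here. For 34741 of the probe sets with a single gene the gene identifier was found in RefSeq, and the symbol was taken from there, changed or not. For 18193 genes the brightest probe set was kept, and those with a mean above percentile 30 (14071 genes) were tested with limma 3.58.1 (lmFit and eBayes with an intensity trend, R 4.3.3) and Benjamini-Hochberg adjustment at 0.05. The steps were tested on simulated data. The p-values rest on the spread of 3 arrays a group, each a pool of littermates, which limits precision.

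The members and lists were chosen with earlier results of these data known. Named genes are the members, the 6 genes of highest Pearson r with each, the list genes past the threshold, the 3 others of largest difference per list, and the tested neighbours. Ihh, Dhh, Disp1, Foxa3, Foxp4, Kif7, Hnf4a, Hand2, Smo, Cdon, Hoxd13, Isl1, Gata4, Gata6, Sox17, Cdx1 and Cdx2 were picked for their role after their values were seen. Lists were 6, with 112 genes beside the members. Promoter sequences are from RefSeq and were found for Foxa1 and Foxa2 and not for Shh.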

Additional observations from a re-analysis of the deposited data

How the results depend on the processing

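The sign of the difference of Shh, Foxa1 and Foxa2 was kept under all 13 alternatives. Its size moved by more than the spread between replicates for Shh, Foxa1 and Foxa2 with no normalization (3.12, 2.29 and 1.28), median centring (3.32, 2.48 and 1.47), scaling to the hybridization controls (3.04, 2.23 and 1.23), a pseudocount of 1 (7.11, 6.42 and 5.75) or 64 (3.40, 2.22 and 1.20), and for Shh with the mean of its probe sets (2.77). These alternatives without quantile normalization moved the median of all genes to -0.48, -0.28 and -0.55, and a pseudocount of 1 moved it to -0.16. The number of genes called, 2 as reported, was 0 with no normalization, scaling to the hybridization controls, averaging of probe sets or a pseudocount of 64, 33 with median centring, 7 with a pseudocount of 1 and 480 with array weights (255 higher and 225 lower). It was 0 to 84 when 1 array was left out: 0 when a negative array was left out and 22, 4 and 84 without positive replicates 1, 2 and 3. The cause was not tested. List genes called, 0 as reported, were 1 with a pseudocount of 1 (Sox2), 8 with array weights and 0 to 2 when 1 array was left out. Neighbours called were 0 as reported and 3 with array weights (Rnf32, Ttc6 and Insig1). A replicate block by pool size gave 2 genes called and a Shh difference of 5.03. Same-numbered arrays correlated at 0.13, 0.03 and 0.11 in their deviations from the group means, so pairing was not assumed. Counts of arrays above background were the same with the second brightest control or the mean plus 2 SD of the controls.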

Other observations

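The arrays carry 4 probe sets for P1 Cre, which is added at hybridization and is also encoded by the knock-in at Shh. The ratio of their mean signal to that of 4 bioD probe sets, another added control, was 4.40, 4.26 and 3.82 in positive replicates 1, 2 and 3 and 4.76, 4.77 and 4.42 in negative replicates 1, 2 and 3. The log2 ratio was -0.16 in positive minus negative arrays (two-sided exact permutation p = 0.1, the smallest that 3 against 3 arrays can give), and it was lower on 3 of 3 positive arrays. The range over 7 alternatives was -0.20 to -0.10. No excess of Cre signal in positive cells was detectable over the added control. The Cre probe sets averaged 4846 to 6041 over the arrays, while deposited Shh signal reached at most 718. A Cre signal from the cells that is small beside the added control could go unseen, so nothing is concluded about Cre in the cells.

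Foxa2 was 1 of 46 named probe sets above background on every positive array and on no negative array. The others included Cldn7 and Cldn6, tight junction claudins, Clca1, Sp8, a zinc finger factor of the limb and tubercle, Anxa8 and Krt6a. They were not all epithelial genes, since C1qa, of the leukocyte markers, and Junb, Icam1 and Ccl2 were among them. C1qa read 11.15, 7.27 and 1.39 in positive replicates 1, 2 and 3, against at most 0.45 in negative arrays. Upk1b, a uroplakin of urothelium, read 16.9, 11.7 and 1.82 in positive replicates 1, 2 and 3, against at most 1.01 in negative arrays. Krt6a, a stress-associated keratin of stratified epithelium, read 32.6, 16.8 and 2.06 in positive arrays and at most 1.41 in negative arrays. These genes were picked after their values were seen.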
